A study of Arabidopsis thaliana with 9 samples.

Results

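Leaves of an Arabidopsis thaliana line whose label names it a stable line of IAA26 (the stabilised line) were compared with leaves of the wild type, across all genes with enough reads to test. The stabilised group was the 3 libraries whose titles name that line, and the wild-type group was the 3 libraries titled as wild type, together 6 of the 9 libraries of the series. Every plant was of the natural accession Shahdara and 9 weeks old, and the labels name no agent in any group. The other 3 libraries came from a line labelled as an IAA26 knockout, which entered the fit and served as a second comparison. The sources used here do not say how the stabilised line was made, which promoter or lesion it carries or whether it is 1 line of descent. The wild type served as control group. The labels call the 3 libraries of a group biological replicates without saying whether they came from separate plants, so p values measure the spread between these libraries.

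IAA26 belongs to the Aux/IAA proteins, which sit on auxin response factors and hold back auxin-responsive transcription. Auxin glues an Aux/IAA protein to a receptor of the TIR1/AFB family through a short conserved motif, the degron, and the repressor is then destroyed. Changes within the core of that motif are the classical way to make an Aux/IAA protein stable, and the transcript itself need not change. In several family members such forms are dominant and alter leaf growth and auxin response. The description of the series calls the line stabilised, without saying what is stable. The codons of the IAA26 degron are shown because this motif is where stable forms of the family are usually made. They lie at chr3:5613659-5613697 of TAIR10 on the minus strand, in coding exon 2 of 5 of the reference transcript. The 39 bases are those of the reference accession Columbia, and the capitals mark the 5 codons of the core. Whether the line carries a change there was not tested.
IAA26 degron: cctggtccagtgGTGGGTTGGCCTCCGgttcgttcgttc

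The stabilised line held less IAA26 transcript than the wild type. IAA26 (AT3G16500) stood at 17.5, 18.5 and 20.3 RPKM, the reads per kilobase of exon scaled to library size, in wild type 1, 2 and 3, and at 12.7, 9.81 and 10.3 RPKM in stabilised 1, 2 and 3. The groups did not overlap, and the values rest on 1337 to 1841 and 698 to 849 exon reads. IAA26 fell to 0.615 of the wild-type level (log2 fold change -0.70, standard error (SE) 0.12, adjusted p = 0.0112). It kept its call in 15 of 15 alternatives. The decrease was also present in intron reads (log2 -0.97, SE 0.22, adjusted p = 0.0255). Since the sources do not say how the line was made, the transcript level does not check its label. In the knockout-labelled line the level was 16.7, 17.2 and 12.4 RPKM, and the direct difference of the lines was not called (log2 -0.31, SE 0.12, adjusted p = 0.122).

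Exon reads per library ran from 28585976 to 45346301, and 96.7% to 97.4% of them were unique. Of 32833 genes listed, 19409 were tested. Leaf identity was checked with photosystem and light-harvesting genes, whose 36 members together reached 42180 to 89880 RPKM. Of 16 markers of flower, meristem and seed, 13 stayed under 1 RPKM in all 6 libraries, and WUS, CLV3, CRA1, CRU3, OLE1 and SESA3 were at 0. Stabilised 1 stood apart from the other stabilised libraries. On the first principal component of log2 expression, which held 44.3% of the variance, it scored -3.01 against 87.8 and 71.5 for stabilised 2 and 3, and wild type scores were -34.0 to -0.456. Across genes, which are not independent replicates, its log2 expression correlated with r = 0.975 with wild type 3 and with r = 0.953 and 0.951 with stabilised 2 and 3. The counts for each gene list are therefore also given without it.

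In the stabilised leaves 987 genes were higher and 734 lower than in the wild type at an adjusted p of 0.05. These were 5.09% and 3.78% of the genes tested, or 8.87% in both directions. Most changes were small. The median absolute log2 fold change among the called genes was 0.85, and 1026 of them changed less than 2-fold. At least 2-fold changes numbered 473 higher (2.44% of those tested) and 222 lower (1.14%), and at least 4-fold changes 168 and 36. The groups did not overlap for 1707 of the 1721 called genes and for 26.6% of all genes tested. Across all genes the median log2 fold change was 0.01, and it was -0.07 with scaling by library totals.

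Departures from the wild type were compared between the 3 stabilised libraries. The calls used all 3, so that the direction was fixed by the choice of genes. Among genes called higher the median departure of stabilised 1 from the wild-type mean was 0.88 log2 units, against 1.05 and 0.93 in stabilised 2 and 3. Among genes called lower the medians were -0.59, -0.81 and -0.75. Stabilised 1 was the nearest of the 3 to the wild type for 51.7% of the higher genes and 67.3% of the lower ones. Without stabilised 1, edgeR called 1998 genes higher (10.1% of those then tested) and 1788 lower (9.07%), or 19.2% in both directions. List counts given below without stabilised 1 are to be read against these larger shares. The calls shared by both fits, all with the same sign, numbered 1627, which is 94.5% of the calls with all libraries and 43.0% of those without stabilised 1. Over the 1979 genes called higher without stabilised 1 and tested in both fits, a set added after the data were seen, stabilised 1 departed by a median of 0.37 against 0.92 and 0.83 in the others, and 79.1% of these genes were above the wild-type mean in it. Over the 1788 called lower the medians were -0.29, -0.75 and -0.65, and 85.2% were below. The wild-type libraries are shared by these calls and departures.

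**Figure D1:**
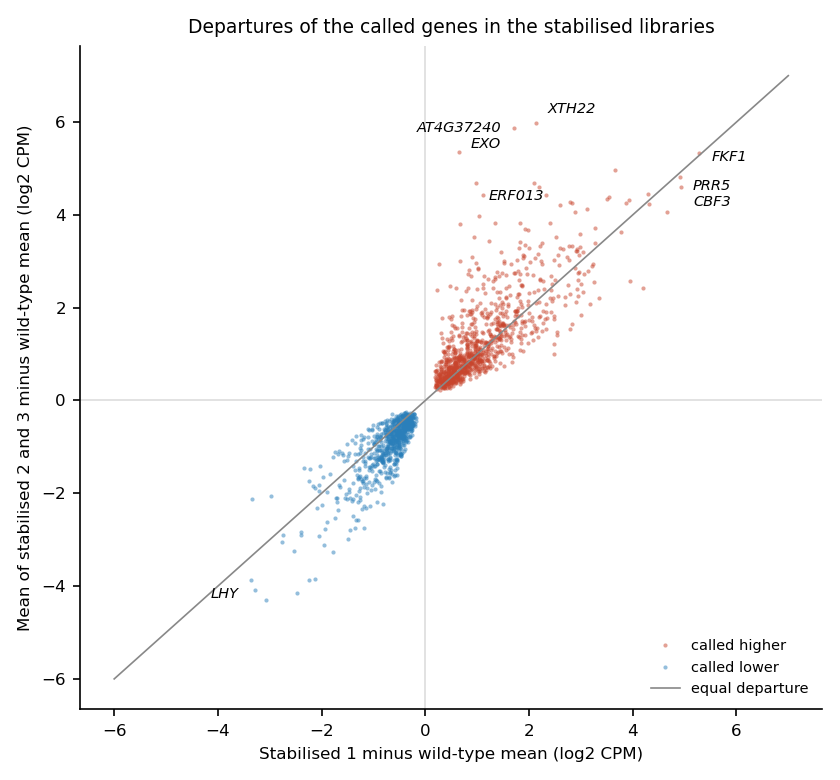
Each point is 1 of the 1721 called genes, with the departure of stabilised 1 from the wild-type mean on the horizontal axis and the mean departure of stabilised 2 and 3 on the vertical axis, both in log2 CPM (exon reads scaled to library size). FKF1, PRR5 and CBF3 lie near the line of equal departure, while XTH22, EXO, ERF013 and AT4G37240 lie far above it, since these rose mainly in stabilised 2 and 3.

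Clock genes moved apart, dawn genes down and day and evening genes up. The plant circadian clock is a loop of repressors that hand over through the day. LHY and CCA1 are made at dawn and hold back the genes of the evening, the PRR proteins follow through the day and repress LHY and CCA1, and the evening complex of ELF3, ELF4 and LUX works at dusk and in the night. RVE8 and the LNK proteins are morning partners that activate later genes. Of 25 clock genes tested 10 rose and 5 fell, so 60.0% were called against 8.87% of all genes. The median log2 fold change of the list was 0.03. Without stabilised 1 the counts were 9 and 7. The number of rises was 5 without stabilised 2, and 6 without stabilised 3, wild type 1 or wild type 3.

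Among dawn genes LHY fell most. The wild-type libraries held 139.6, 83.1 and 114 RPKM of it and the stabilised ones 11, 6.50 and 7.23 RPKM (log2 -3.71, SE 0.26, adjusted p = 0.000472). The groups stood far apart, and all 3 stabilised libraries were low. Its relative CCA1 fell from 246, 144 and 207 RPKM to 87.4, 44.9 and 51.7 RPKM (log2 -1.64, SE 0.27, adjusted p = 0.0108). RVE8 fell (log2 -1.85, adjusted p = 0.00419), as did LNK2 (log2 -1.45, adjusted p = 0.00106) and LNK3 (log2 -1.25, adjusted p = 0.00183). For CCA1 and RVE8 stabilised 1 was the highest of the 3 stabilised libraries, though still under every wild-type library. RVE1, which links the clock to auxin synthesis, gave log2 -1.38 (adjusted p = 0.0635), and -1.93 without stabilised 1 (adjusted p = 0.00849).

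The largest rises of the clock were those of FKF1 and PRR5. FKF1 (AT1G68050, listed as ADO3) is a blue-light receptor of the afternoon that removes repressors of flowering. It was at 0.163, 0.144 and 0.114 RPKM in the wild type and at 6.43, 6.50 and 5.43 RPKM in the stabilised leaves (45.8-fold, log2 5.52, SE 0.21, adjusted p = 1.89e-05). The PRR5 gene (AT5G24470, APRR5 in the files), a repressor of LHY and CCA1, went from 0.421, 0.498 and 0.487 RPKM to 15.4, 13.8 and 11.7 RPKM (30.5-fold, log2 4.93, SE 0.18, adjusted p = 1.89e-05). Both were close to silent in the wild type and alike in all 3 stabilised libraries. Each kept its call in 15 of 15 alternatives.

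Other members of both groups rose less. PRR3 rose 4.94-fold (log2 2.30, adjusted p = 0.000712), and TOC1 rose from 2.21, 5.88 and 3.89 RPKM to 12.6, 14.3 and 11.4 RPKM (log2 1.76, adjusted p = 0.013). PRR7 (log2 0.73, adjusted p = 0.00827) and GI, a partner of FKF1 (log2 0.92, adjusted p = 0.0468), rose as well, and the call of GI was lost without stabilised 1 (adjusted p = 0.0512). All 3 members of the evening complex rose, with ELF3 at log2 1.43 (adjusted p = 0.000797), ELF4 at 1.66 (adjusted p = 0.0163) and LUX at 1.47 (adjusted p = 0.0395). LUX was at 0.792 RPKM in stabilised 1 and at 1.79 and 1.82 RPKM in the others, and 65.7% of its reads were unique. CHE, a regulator of CCA1, rose from 15, 16.9 and 10.1 RPKM to 24.8, 63.3 and 69.3 RPKM (log2 2.02, adjusted p = 0.0269). PRR9, the earliest PRR of the day, gave log2 -0.42 (adjusted p = 0.411), and ZTL, a relative of FKF1 whose transcript cycles little, gave -0.20 (adjusted p = 0.283). CDF2, of the flowering repressors that FKF1 removes, fell (log2 -1.56, adjusted p = 0.00377). The labels do not give the hour at which leaves were taken, and its part in these differences was not tested.

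**Figure D2:**
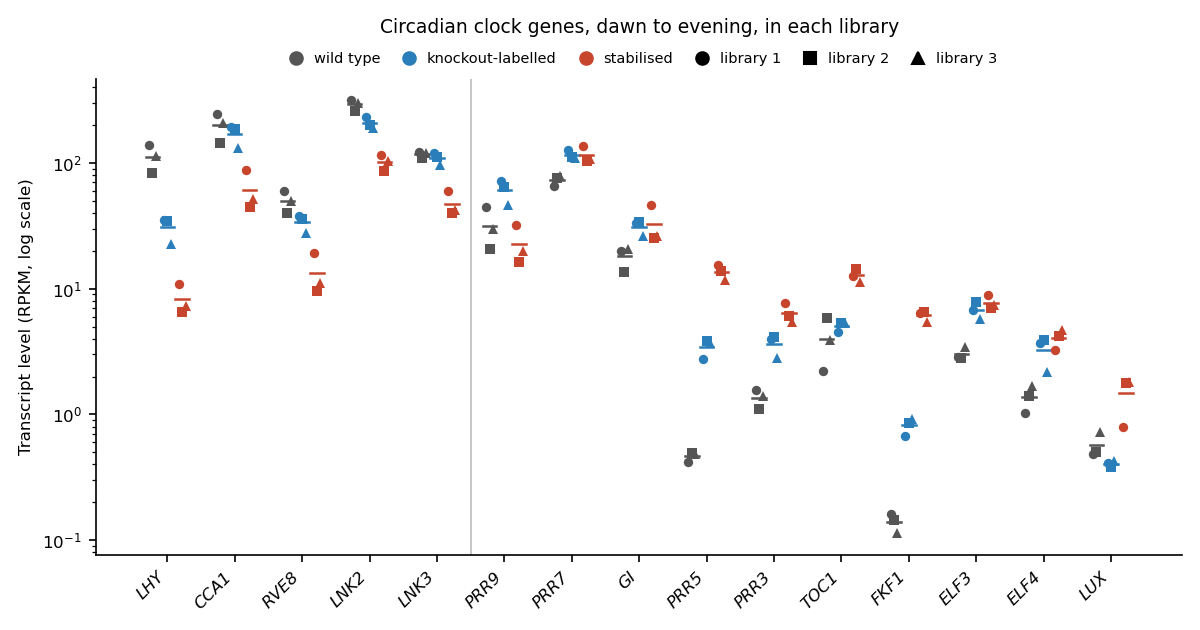
Levels of 15 clock genes in RPKM on a log axis, 1 point per library with its group by colour and its number by shape, and a bar at each group mean; genes left of the grey line are expressed at dawn. The stabilised libraries lie below the wild type for the 5 dawn genes and above it for all of the others except PRR9.

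Promoters of genes called higher held the evening element, a motif bound by LHY, CCA1 and RVE proteins, more often than promoters at large. The search covered the 250 bases before each annotated start, on both strands, in the reference genome. AAAATATCT was found in 9.83% of the promoters of genes called higher (97 of 987), in 0.545% of those called lower (4 of 734) and in 2.55% of all genes tested (492 of 19292 promoters read). Seen from the motif, 19.7% of the genes that hold it were called higher and 0.813% lower. Among genes at least 2-fold higher the share was 11.4%. Without stabilised 1, among genes tested in both fits, the shares were 6.27% of those called higher and 1.07% of those called lower. No test was made, and a match is not a binding site.

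The other motifs stood closer to their share among all genes. The G-box CACGTG was in 8.71% of the promoters called higher, 10.6% of those called lower and 7.47% of all, and it reached 15.3% among genes at least 2-fold lower. The dehydration and cold core CCGAC, read by CBF proteins, was in 14.0%, 11.2% and 13.0%. The auxin response element TGTCTC was in 9.93%, 10.5% and 10.5%, so its share among the called genes was near that of all genes. The GCC box GCCGCC was in 1.82%, 1.09% and 1.97%, and the W-box core TTGAC in 44.7%, 48.0% and 44.9%. No motif of the 6 contains another on either strand.

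**Figure D3:**
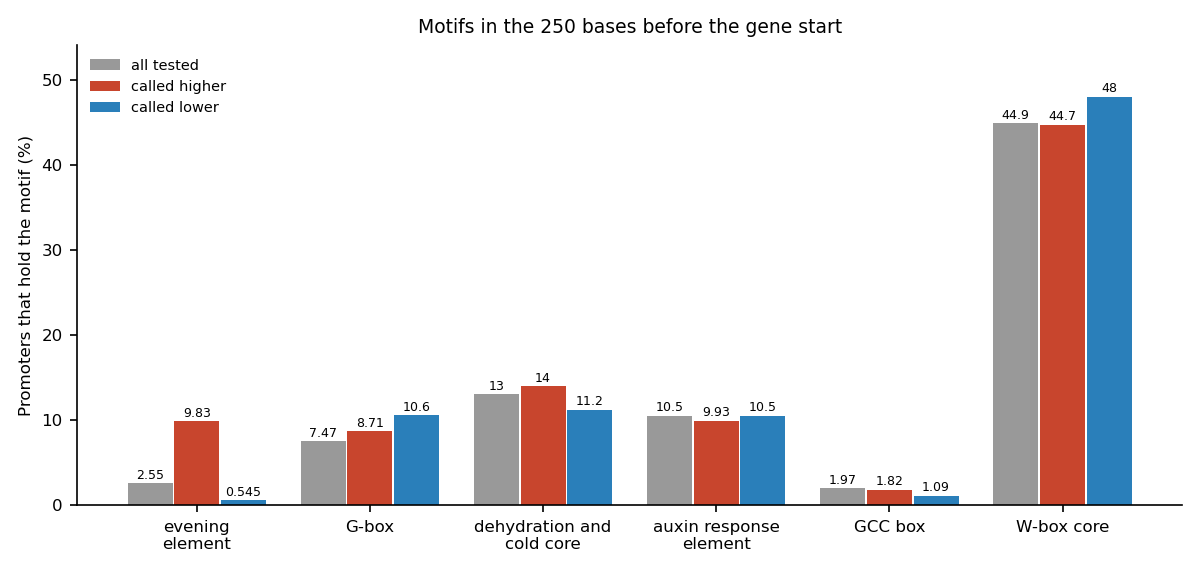
Share of promoters, in percent, that hold each of 6 motifs on either strand in the 250 bases before the gene start, for all genes tested, genes called higher and genes called lower. The evening element stands at 2.55%, 9.83% and 0.545%, the widest spread relative to its share among all genes.

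The promoters of 4 genes that rose and hold the evening element are shown with that of LHY, which fell and holds a G-box. They are of the reference accession on TAIR10, read from start to gene in the direction of transcription, and capitals mark the evening element, the G-box or CCGAC, or the reverse complement of each. Positions are counted to the first base of the match, back from the gene start. FKF1 lies at chr1:25508389-25508638 on the plus strand with its evening element 186 bases before the start, and PRR5 at chr5:8358547-8358796 on the minus strand with it 187 bases before. PWD, of starch breakdown, lies at chr5:9261229-9261478 on the plus strand with it 33 bases before, and AT4G30650 at chr4:14953954-14954203 on the plus strand with it 54 bases before. LHY lies at chr1:37872-38121 on the minus strand with its G-box 80 bases before the start.
FKF1: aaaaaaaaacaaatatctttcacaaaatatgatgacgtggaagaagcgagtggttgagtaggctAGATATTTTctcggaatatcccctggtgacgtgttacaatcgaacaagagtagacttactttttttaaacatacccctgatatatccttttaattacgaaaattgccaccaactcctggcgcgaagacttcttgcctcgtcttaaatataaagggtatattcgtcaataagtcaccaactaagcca
PRR5: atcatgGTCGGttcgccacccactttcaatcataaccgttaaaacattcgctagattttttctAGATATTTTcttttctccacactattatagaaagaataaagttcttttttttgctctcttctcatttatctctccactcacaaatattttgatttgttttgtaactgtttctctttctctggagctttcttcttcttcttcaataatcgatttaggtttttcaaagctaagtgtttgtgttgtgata
PWD: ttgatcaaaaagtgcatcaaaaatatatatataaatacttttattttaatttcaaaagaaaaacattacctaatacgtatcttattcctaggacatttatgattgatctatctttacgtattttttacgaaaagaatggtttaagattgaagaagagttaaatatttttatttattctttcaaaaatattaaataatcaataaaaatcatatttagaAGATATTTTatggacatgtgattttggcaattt
AT4G30650: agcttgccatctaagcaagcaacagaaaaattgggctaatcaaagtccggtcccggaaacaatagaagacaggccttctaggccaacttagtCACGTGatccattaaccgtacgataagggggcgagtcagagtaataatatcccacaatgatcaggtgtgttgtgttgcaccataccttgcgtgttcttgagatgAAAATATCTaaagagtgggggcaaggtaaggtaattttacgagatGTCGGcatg
LHY: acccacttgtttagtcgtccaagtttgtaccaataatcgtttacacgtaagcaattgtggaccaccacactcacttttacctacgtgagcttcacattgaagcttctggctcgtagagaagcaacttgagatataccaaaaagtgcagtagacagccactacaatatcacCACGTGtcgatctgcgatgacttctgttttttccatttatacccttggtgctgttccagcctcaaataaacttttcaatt

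Many cold genes rose in the stabilised leaves. CBF1, CBF2 and CBF3 are transcription factors that the cold induces within minutes to hours, and that switch on COR genes, whose products protect membranes and chloroplasts. Their transcripts are also known to follow the clock. Of 22 cold genes tested 12 rose, which is 54.5% against 5.09% of all genes called higher, and the median log2 fold change was 1.72. Without stabilised 1 the count was 12 as well. It was 6 without wild type 3, 8 without stabilised 2 or 3 and 14 without wild type 2.

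CBF3 (AT4G25480, listed as DREB1A) was at 0.234, 0.285 and 0.391 RPKM in the wild type and at 10.4, 6.91 and 7.70 RPKM in the stabilised leaves (28.6-fold, log2 4.84, SE 0.21, adjusted p = 3.05e-05). CBF1, next to it on chromosome 4, went from 0.0669, 0.257 and 0.163 RPKM to 3.78, 4.18 and 2.41 RPKM (21.8-fold, log2 4.44, SE 0.48, adjusted p = 0.00217). CBF2 rose 12.2-fold (log2 3.605, SE 0.49, adjusted p = 0.0055). In all 3 genes every stabilised library, stabilised 1 included, was above every wild-type library. Among their known targets COR15B, a chloroplast protein that protects membranes, went from 1.95, 2.94 and 1.92 RPKM to 27, 47.6 and 38.1 RPKM (17.7-fold, log2 4.15, SE 0.38, adjusted p = 0.00113). RD29A rose from 10.8, 7.23 and 5.54 RPKM to 68.4, 58.5 and 39.0 RPKM (log2 2.89, SE 0.28, adjusted p = 0.00152). COR15A (log2 2.70, adjusted p = 0.0173), KIN2 (1.83, adjusted p = 0.0139), KIN1 (2.15, adjusted p = 0.0358), LTI30 (2.67, adjusted p = 0.0422) and the membrane protein COR413PM1 (1.34, adjusted p = 0.0067) rose too.

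ICE1 and CAMTA3, which act upstream of the CBF genes, were not called. ICE1 gave log2 -0.25 (adjusted p = 0.143) and CAMTA3 0.61 (adjusted p = 0.0994). AT4G30650, a small hydrophobic protein of the RCI2 family, rose from 3.44, 2.19 and 2.63 RPKM to 35.8, 84.2 and 73.1 RPKM (25.3-fold, log2 4.66, SE 0.45, adjusted p = 0.0014). The promoter of RD29A, at chr5:21240467-21240716 on the plus strand, is shown for its 3 copies of CCGAC, in capitals, at 140, 90 and 33 bases before the start.
RD29A: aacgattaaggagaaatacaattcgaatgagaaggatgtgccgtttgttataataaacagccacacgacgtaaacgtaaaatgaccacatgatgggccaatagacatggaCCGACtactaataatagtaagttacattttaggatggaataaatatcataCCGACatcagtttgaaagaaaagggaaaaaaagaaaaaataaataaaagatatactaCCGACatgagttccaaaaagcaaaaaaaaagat

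A further set of large rises was least in stabilised 1. Touch, wounding and brassinosteroids are known to raise several of these genes. XTH22 (TCH4), an enzyme that cuts and rejoins xyloglucan, was at 1.47, 3.14 and 2.99 RPKM in the wild type and at 10.8, 176 and 109 RPKM in stabilised 1, 2 and 3 (log2 5.42, SE 1.02, adjusted p = 0.0178). EXO, a brassinosteroid-induced gene of leaf growth, was at 1.33, 0.714 and 0.577 RPKM against 1.33, 42.2 and 24.0 RPKM (log2 4.84, SE 1.16, adjusted p = 0.0395). In stabilised 1 XTH22 was above the wild type but far below the others, and EXO stood level with wild type 1.

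Stabilised 1 was also the lowest of its group for the rest of the set. The EXORDIUM-like PHI1 was at 2.68, 32.8 and 6.31 RPKM in the stabilised libraries and at most 0.987 RPKM in the wild type (log2 4.58, adjusted p = 0.0444), so that stabilised 2 alone stood far above the others. The transcription factor ERF013 was at 0.529, 13.8 and 3.15 RPKM and at most 0.356 RPKM in the wild type (log2 4.63, adjusted p = 0.0427). AT4G37240, with the largest rise of the named genes, was at 0.470, 9.25 and 7.72 RPKM against 0.0326, 0.175 and 0.119 RPKM (55.0-fold, log2 5.78, SE 1.27, adjusted p = 0.0302). Its estimate rests on 12, 264 and 254 reads in the stabilised libraries and on 1 to 7 in the wild type. These 5 genes kept their calls in 6 to 9 of 14 or 15 alternatives, and without stabilised 1 their adjusted p values ran from 0.00161 to 0.0139. XTH33 gave log2 3.75 (adjusted p = 0.0601) in the same pattern, at 3.19, 57.5 and 27.1 RPKM in the stabilised libraries.

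**Figure D4:**
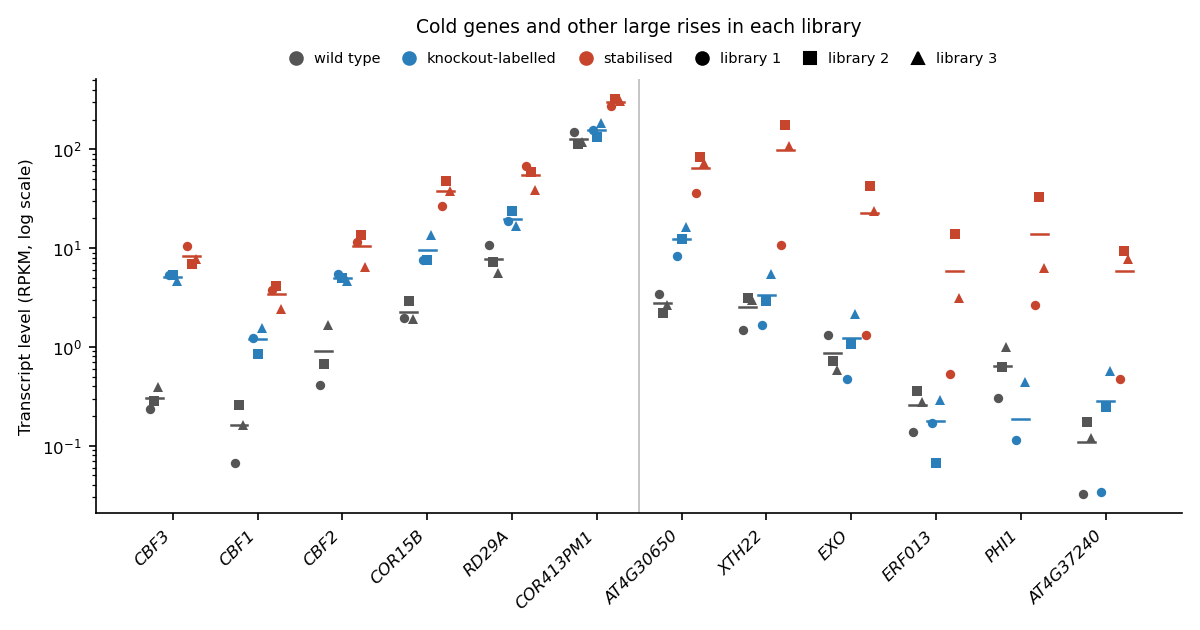
Levels of 6 cold genes, left of the grey line, and 6 other large rises, right of it, in RPKM on a log axis, with 1 point per library and a bar at each group mean; a value of 0 for PHI1 in knockout-labelled 2 cannot be drawn. Stabilised 1 (red circles) lies with stabilised 2 and 3 for the cold genes and far below them for XTH22, EXO, ERF013 and AT4G37240; for AT4G30650 it is lower by less, and for PHI1 stabilised 2 stands above both others.

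Genes of cell expansion and shade growth were mixed as a list, with 2 of 21 higher and 2 lower (19.0% called, against 8.87% of all genes). Without stabilised 1 they were 5 and 2. The rises were 0 without stabilised 2 or any 1 wild-type library and 1 without stabilised 3. The falls were 1 without stabilised 2 or any 1 wild-type library. Beside XTH22, XTH9 rose from 4.98, 3.32 and 5.67 RPKM to 9.28, 15.7 and 18.5 RPKM (log2 1.74, adjusted p = 0.0337). The expansin EXPA4 (log2 -0.99, adjusted p = 0.0316) and the light-signalling factor PIF3 (log2 -0.95, SE 0.11, adjusted p = 0.00248) fell. PIF4, which drives growth in warmth and shade, gave log2 0.66 (adjusted p = 0.0764), and 0.82 without stabilised 1 (adjusted p = 0.0245).

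Starch breakdown genes were the other list with a high share of calls. At night leaves turn over starch in steps, since glucan water dikinases loosen the granule, phosphatases and debranching enzymes open the chains, and DPE enzymes and phosphorylases handle the maltose and glucans that result. Of 15 genes of this pathway and of sucrose export 8 rose and 2 fell. Thus 66.7% were called against 8.87% of all genes, with a median of 0.68. Without stabilised 1 they were 8 and 3. The rises were 4 without stabilised 2 or wild type 3 and 5 without wild type 2.

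DPE1, which rearranges short glucans in the chloroplast, rose from 5.72, 8.74 and 9.42 RPKM to 27, 24.0 and 27.6 RPKM (3.48-fold, log2 1.80, SE 0.17, adjusted p = 0.00115). PHS2, the cytosolic glucan phosphorylase, rose 2.88-fold (log2 1.52, SE 0.12, adjusted p = 0.0007), GWD1, which starts the breakdown, rose 2.63-fold (log2 1.39, adjusted p = 0.0036), and PWD, its partner, rose 2.41-fold (log2 1.27, SE 0.09, adjusted p = 0.000488). PHS1, SEX4, DPE2 and LSF1 rose by log2 0.93, 0.89, 0.68 and 0.51 (adjusted p = 0.0122, 0.0275, 0.0216 and 0.044). GBSS1, which builds amylose, was at 639.7, 390.0 and 429 RPKM in the wild type and at 151, 84.8 and 83.8 RPKM in the stabilised leaves (log2 -2.13, SE 0.32, adjusted p = 0.00846). The sucrose exporter SWEET11 fell from 223, 181 and 199 RPKM to 113, 81.4 and 74.6 RPKM (log2 -1.09, SE 0.16, adjusted p = 0.00695).

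Genes of pattern-triggered immunity rose in part. This layer of defence senses molecules common to microbes at the cell surface and passes the signal through kinases to WRKY factors. Of 26 genes, 7 rose (26.9%, against 5.09% of all genes called higher), and the median was 0.57. The count was 7 without stabilised 1 as well, with 1 lower, 2 without wild type 1 and 3 without stabilised 2, stabilised 3 or wild type 3. With only the 6 libraries compared it was 1. The kinase MPK3 rose from 92.0, 126 and 103 RPKM to 255, 184 and 162 RPKM (log2 0.98, SE 0.16, adjusted p = 0.0101). WRKY33, a regulator of camalexin synthesis that MPK3 activates, rose from 28.9, 57.9 and 72.3 RPKM to 293, 119 and 131 RPKM (log2 1.82, SE 0.38, adjusted p = 0.0263). Here stabilised 1 was the highest library of its group.

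The co-receptor BAK1 (log2 0.52, adjusted p = 0.0395), the kinase BIK1 (0.76, adjusted p = 0.0481), the transporter PEN3 (1.39, adjusted p = 0.0406) and PEN2 (0.71, adjusted p = 0.0115), an enzyme that activates indole glucosinolates at sites of attack, rose too, and PHI1 is the other member. BIK1 was lost without stabilised 1 (adjusted p = 0.0658). PAD3, the last enzyme of camalexin synthesis, was at 48.5, 5.95 and 8.23 RPKM in the wild type and at 6.82, 3.82 and 4.23 RPKM in the stabilised leaves, so wild type 1 alone was high (log2 -2.02, adjusted p = 0.121).

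Hormone defence lists held few calls. For salicylic acid 2 of 28 genes rose and 1 fell (10.7%, near the 8.87% of all genes), with a median of 0.36. These were SAG101, a partner of EDS1 (log2 0.73, SE 0.13, adjusted p = 0.0136), SARD1, which switches on salicylic acid synthesis (log2 1.35, adjusted p = 0.0499), and EPS1, of that synthesis (log2 -1.31, SE 0.21, adjusted p = 0.0103). SARD1 was lost without stabilised 1 (adjusted p = 0.0682). The rises were 0 without stabilised 2, 3 without stabilised 3 and 1 without stabilised 1, wild type 1 or wild type 2. The marker PR1 was at 5.39, 6.87 and 5.13 RPKM against 12.4, 7.78 and 9.24 RPKM, which was not called (log2 0.83, adjusted p = 0.49). For jasmonate and ethylene 1 of 32 rose and 1 fell (6.25%, under the share of all genes), and 3 and 3 did without stabilised 1. The rises were 0 without stabilised 2, wild type 1 or wild type 3 and 2 without wild type 2. LOX4, a lipoxygenase of jasmonate synthesis, rose from 12, 36.9 and 19.8 RPKM to 75.4, 130.4 and 48.3 RPKM (log2 1.99, adjusted p = 0.0433), and EBF2, which removes the ethylene factor EIN3, fell (log2 -0.78, SE 0.11, adjusted p = 0.00569).

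Auxin genes moved in both directions. Of 23 Aux/IAA genes tested 3 rose and 3 fell (26.1%, against 8.87% of all genes), with a median of 0.25. Without stabilised 1 they were 6 and 4, in a fit that called 19.2% of all genes. Without any 1 of the other 5 libraries the rises numbered 0, and the falls numbered 2 without any of them but wild type 2. IAA17 fell with IAA26, from 65.3, 60.0 and 59.8 RPKM to 41.7, 39.7 and 43.1 RPKM (log2 -0.49, SE 0.08, adjusted p = 0.0127), as did IAA12 (log2 -0.69, adjusted p = 0.0427). The knockout-labelled line held less IAA17 than the wild type too (log2 -0.51, adjusted p = 0.0319). IAA9, a repressor of leaf and vein development, rose from 61.0, 60.7 and 56.0 RPKM to 75.9, 73.5 and 85.4 RPKM (log2 0.49, SE 0.10, adjusted p = 0.0254). The auxin-induced IAA29 rose from 0.889, 2.41 and 0.925 RPKM to 5.01, 17.2 and 13.5 RPKM (log2 3.19, adjusted p = 0.0414) and IAA3 from 31.9, 32.3 and 29.7 RPKM to 40.2, 76.6 and 68.8 RPKM (log2 1.09, adjusted p = 0.039). In both stabilised 1 was the lowest of its group, and IAA6 was at 0.190, 6.45 and 4.94 RPKM in stabilised 1, 2 and 3 (log2 3.79, adjusted p = 0.105).

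Of 15 auxin response factors ARF8, an activator, fell (log2 -0.57, SE 0.12, adjusted p = 0.0305), which is 6.67% and near the 8.87% of all genes. Without stabilised 1, 4 fell, in a fit that called 9.07% of all genes lower. The call of ARF8 was lost without stabilised 2, stabilised 3, wild type 1 or wild type 3. Among 26 genes of auxin synthesis, perception, transport and early response 1 rose and 2 fell (11.5%). Without stabilised 1, where 19.2% of all genes were called, 6 and 3 did. The rise was lost without any 1 of the others but wild type 2, and 1 gene fell without stabilised 3, wild type 1 or wild type 3. The receptor AFB3 fell from 35.8, 34.0 and 35.1 RPKM to 25.4, 19.3 and 20.3 RPKM (log2 -0.62, SE 0.09, adjusted p = 0.00616), and 72.2% of its reads were unique. YUC6, of auxin synthesis, fell (log2 -0.76, SE 0.16, adjusted p = 0.0243), and GH3.5, which conjugates auxin to amino acids, rose (log2 0.68, SE 0.17, adjusted p = 0.0407).

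Nuclear photosystem and light-harvesting genes show what rests on stabilised 1. EdgeR called 0 of 36 with all libraries. At an unadjusted p under 0.05 there were 3, all higher, while DESeq2 gave 2 calls and limma-voom 0. Without stabilised 1 edgeR called 21 of the 36 higher, in a fit that called 10.1% of all genes higher. The median was 0.47 with all libraries and 0.74 without stabilised 1. With all libraries 35 of the 36 had a log2 fold change above 0, against 9904 of all 19409 genes tested. Summed over the list, the wild type was at 54770, 58070 and 43580 RPKM, stabilised 1 at 42180 RPKM and stabilised 2 and 3 at 89880 and 84430 RPKM. LHCA1, an antenna protein of photosystem I, was at 2382, 5019 and 4576 RPKM in the stabilised libraries and at 2077 to 2705 RPKM in the wild type (log2 0.84, adjusted p = 0.138). LHCB1.4, of the photosystem II antenna, was at 29.7, 30.5 and 3.299 RPKM in the wild type and at 8.16, 620.4 and 490.4 RPKM in the stabilised libraries (log2 4.28, SE 1.59, adjusted p = 0.131). In the Calvin cycle 2 of 15 fell, which is 13.3% against 3.78% of all genes called lower. They were the aldolase FBA1 (log2 -0.70, adjusted p = 0.0258) and Rubisco activase RCA (log2 -0.69, adjusted p = 0.0498), alike in all 3 stabilised libraries. They numbered 2 without stabilised 1, 0 without stabilised 2, stabilised 3, wild type 1 or wild type 3 and 1 without wild type 2.

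The largest falls outside the clock were of genes of mixed roles, and wild type 1 was the highest library in most of them. GSTU24, a glutathione transferase, went from 18.4, 14.5 and 10.1 RPKM to 2.99, 0.730 and 0.949 RPKM (log2 -3.18, SE 0.48, adjusted p = 0.00835). AKR4C9, a chloroplast aldo-keto reductase, fell from 13.6, 12.1 and 12.4 RPKM to 2.95, 0.571 and 1.04 RPKM (log2 -3.04, SE 0.45, adjusted p = 0.00773). No library of the groups overlapped for either gene, and both kept their calls in 15 of 15 alternatives. AT5G17390 fell from 2.36, 0.753 and 0.652 RPKM to at most 0.0637 RPKM (log2 -5.24, SE 0.93, adjusted p = 0.0139).

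The reductase CAD8 was at 13.6, 3.71 and 0.900 RPKM in the wild type and at 0.413, 0.185 and 0.107 RPKM in the stabilised leaves (log2 -4.66, SE 1.05, adjusted p = 0.033). Its call, with those of KCS2, of very-long-chain fatty acid synthesis (log2 -3.41, adjusted p = 0.0303), and of UGT73B4 (log2 -3.25, adjusted p = 0.0289), held in 10 of 15, 10 of 15 and 10 of 14 alternatives. Only 14.5% of the reads of UGT73B4 and 54.2% of those of KCS2 were unique, so that UGT73B4 is uncertain. The transcription factor BHLH167 fell from 7.98, 3.96 and 1.39 RPKM to 0.652, 0.371 and 0.414 RPKM (log2 -3.15, adjusted p = 0.0166). AT1G26790, a Dof-type factor related to the CDF repressors of flowering, fell from 1.46, 0.936 and 1.70 RPKM to 0.213, 0.0212 and 0.0550 RPKM (log2 -3.79, SE 0.60, adjusted p = 0.00954).

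Of 14 heat shock genes 4 fell and 1 rose (35.7%, against 8.87% of all genes), with a median of -0.88. These chaperones refold or hold proteins damaged by heat. The 4 were HSP17.6A, at 3.97, 1.14 and 3.59 RPKM against 0.333, 0.265 and 0.201 RPKM (log2 -3.36, SE 0.58, adjusted p = 0.0129), HSP70-4 (-2.14, adjusted p = 0.0262), HSP90.1 (-1.93, adjusted p = 0.0318) and HSP101 (-1.66, adjusted p = 0.0418). Wild type 2 was the lowest of its group in all 4. Without stabilised 1 or wild type 2 there were 5 lower, but 1 without wild type 1 or 3 and 0 without stabilised 2 or 3. The rises were 2 without stabilised 1 and 0 without stabilised 2 or wild type 3. DREB2A, a factor of drought and heat, rose from 1.56, 2.02 and 1.48 RPKM to 7.73, 6.85 and 2.96 RPKM (log2 1.86, SE 0.37, adjusted p = 0.0224).

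Of 24 flavonoid and anthocyanin genes 4 fell, which is 16.7% against 3.78% of all genes called lower. Of the 24 genes 22 had a log2 fold change below 0, against 9505 of all 19409 genes tested, and the list median was -0.76. PAL1, the first enzyme of phenylpropanoid synthesis, fell from 42.1, 34.9 and 44.5 RPKM to 13.2, 8.41 and 11.9 RPKM (log2 -1.79, SE 0.26, adjusted p = 0.00684). C4H, the next step, fell from 88.0, 64.1 and 74.6 RPKM to 33.4, 25.8 and 29.1 RPKM (log2 -1.28, SE 0.13, adjusted p = 0.00198). 4CL3 (log2 -2.46, adjusted p = 0.0164) and chalcone isomerase CHI (log2 -1.47, adjusted p = 0.0427) fell too.

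The late anthocyanin genes split the libraries of both groups. DFR was at 3.43, 11.9 and 155 RPKM in wild type 1, 2 and 3 and at 101, 0.942 and 1.48 RPKM in stabilised 1, 2 and 3. LDOX was at 3.45, 8.60 and 118 RPKM against 112, 1.02 and 1.95 RPKM. Wild type 3 and stabilised 1 were high in both genes, and neither was called (log2 -0.74 and -0.21, adjusted p = 0.837 and 0.955). The median of the list was -2.15 without stabilised 1, where 5 genes fell, and 2 fell without stabilised 2, stabilised 3, wild type 1 or wild type 3.

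Genes of abscisic acid and drought had 4 of 23 lower (17.4%, against 3.78% of all genes called lower), 0 higher and a median of -0.06. At an unadjusted p under 0.05, 6 of these genes were higher and 6 lower. DESeq2 called 6 higher and 5 lower, and limma-voom 1 and 4. Without stabilised 1 the list had 4 higher and 5 lower. The falls were 1 without stabilised 2 or 3 and 2 without wild type 1 or 3. RD20 fell from 329, 161 and 196 RPKM to 88.8, 93.1 and 69.2 RPKM (log2 -1.37, SE 0.26, adjusted p = 0.0174), and the factor ABF3 (log2 -0.996, SE 0.17, adjusted p = 0.0136), the phosphatase HAB1 (log2 -1.29, adjusted p = 0.0309) and ABA1, of abscisic acid synthesis (log2 -0.70, SE 0.14, adjusted p = 0.0214), fell. In iron homeostasis 3 of 17 genes were called lower (median -0.53), in a fit that called 3.78% of all genes lower. They were FRO3, a reductase (log2 -0.64, SE 0.12, adjusted p = 0.015), OPT3, a transporter of the phloem (log2 -0.78, adjusted p = 0.0313), and the regulator PYE (log2 -1.24, adjusted p = 0.033). Of these 17 genes 16 had a log2 fold change below 0, against 9505 of all 19409 genes tested. Called lower were 4 without stabilised 1, 0 without stabilised 2 or 3 and 1 without wild type 1 or 3.

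Of 23 leaf senescence genes 3 fell (13.0%, against 3.78% of all genes called lower), around a median of -0.14. Without stabilised 1, 6 fell and 1 rose, against 9.07% of all genes called lower and 10.1% higher in that fit. The falls were 1 without stabilised 2, stabilised 3 or wild type 2 and 2 without wild type 1 or 3. NAP, a NAC factor that drives senescence, went from 95.5, 84.7 and 92.2 RPKM to 45.5, 21.1 and 25.8 RPKM (log2 -1.51, SE 0.24, adjusted p = 0.0093). ORE1, another, went from 26.0, 36.5 and 40.1 RPKM to 23.5, 12.7 and 12.1 RPKM (log2 -1.03, SE 0.24, adjusted p = 0.0379), and WRKY45 gave log2 -1.03 (adjusted p = 0.0356). Among 27 genes of phase change and flowering 1 rose and 3 fell (14.8%, against 8.87% of all genes). Without stabilised 1 they were 1 and 6, against 19.2% of all genes called in that fit. The falls were 1 without stabilised 3, wild type 1 or wild type 2 and 2 without stabilised 2 or wild type 3. The rises were 0 without stabilised 2, stabilised 3, wild type 1 or wild type 2. SOC1, an integrator of flowering, rose from 43.2, 64.8 and 79.0 RPKM to 126, 98.3 and 86.8 RPKM (log2 0.81, adjusted p = 0.0448), which was lost without stabilised 1 (adjusted p = 0.0597). With CDF2, AGL24, a promoter of flowering, and SNZ, a repressor of it, fell (log2 -0.77 and -0.68, adjusted p = 0.0341 and 0.0376).

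In the remaining lists calls were few. RNA silencing and tobamovirus host factors had 2 of 21 higher (9.52%, near all genes), SGS3 (log2 0.52, SE 0.08, adjusted p = 0.00801) and AGO10 (log2 0.61, SE 0.11, adjusted p = 0.0144). Without stabilised 1 there were 2 higher and 3 lower, and without wild type 1 or 3 there was 1 higher. In sulphur assimilation 1 of 14 fell (7.14%, against 3.78% of all genes called lower). It was APR2 (log2 -0.75, adjusted p = 0.0274), with 45% of its reads unique and so uncertain. This list had 1 higher and 1 lower without stabilised 1, and 0 calls without stabilised 2, stabilised 3, wild type 1 or wild type 3. EdgeR called 0 of 27 glucosinolate genes, with 5 higher at an unadjusted p under 0.05, 2 by DESeq2 and 0 by limma-voom, and 1 was higher without stabilised 1. The log2 fold change was above 0 for 23 of the 27. MAM1, of side-chain elongation, was at 601, 883 and 901 RPKM against 1303, 1109.9 and 1320.1 RPKM (log2 0.73, SE 0.21, adjusted p = 0.0692).

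Markers of other cell types were checked for the same libraries. In bulk leaf, fewer cells of a type and less RNA per cell cannot be told apart. Among 8 phloem markers PP2-A1 fell (log2 -0.49, adjusted p = 0.0274), which is 12.5% against 3.78% of all genes called lower. The log2 fold change was above 0 for 4 of the markers and below 0 for 4. Their median was 0.01, and it had the other sign in 7 alternatives. Their summed level was 321.9 to 393.5 RPKM in the wild type and 246.4 to 304.4 RPKM in the stabilised leaves. The list had 1 call without stabilised 1 or wild type 1 and 0 without any of the others. EdgeR, DESeq2 and limma-voom called 0 of 10 xylem markers and 0 passed an unadjusted p under 0.05, though all 10 had a log2 fold change above 0. Their sum was 15.8, 14.5 and 5.74 RPKM in the wild type and 4.84, 19.5 and 24.3 RPKM in the stabilised leaves, so it was low in wild type 3 and stabilised 1. VND7 gave log2 1.102 (adjusted p = 0.272). Of 14 tested trichome, epidermis and stomatal markers 0 were called by any of the 3 tools, with 1 higher and 2 lower unadjusted and sums of 63.8 to 80.0 RPKM against 63.5 to 69.1 RPKM, and GL3 gave -1.95 (adjusted p = 0.138). Markers of dividing cells (9 tested) and of flower, meristem and seed (6 tested) had 0 calls by any tool and 0 unadjusted, with CYCD3;1 at 0.91 (adjusted p = 0.325) and SEP3 at 0.85 (adjusted p = 0.416). Without stabilised 1 the counts were 1 lower for the trichome list and 0 for the xylem, dividing cell and flower lists. The part of these markers in the other results was not tested.

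**Figure D5:**
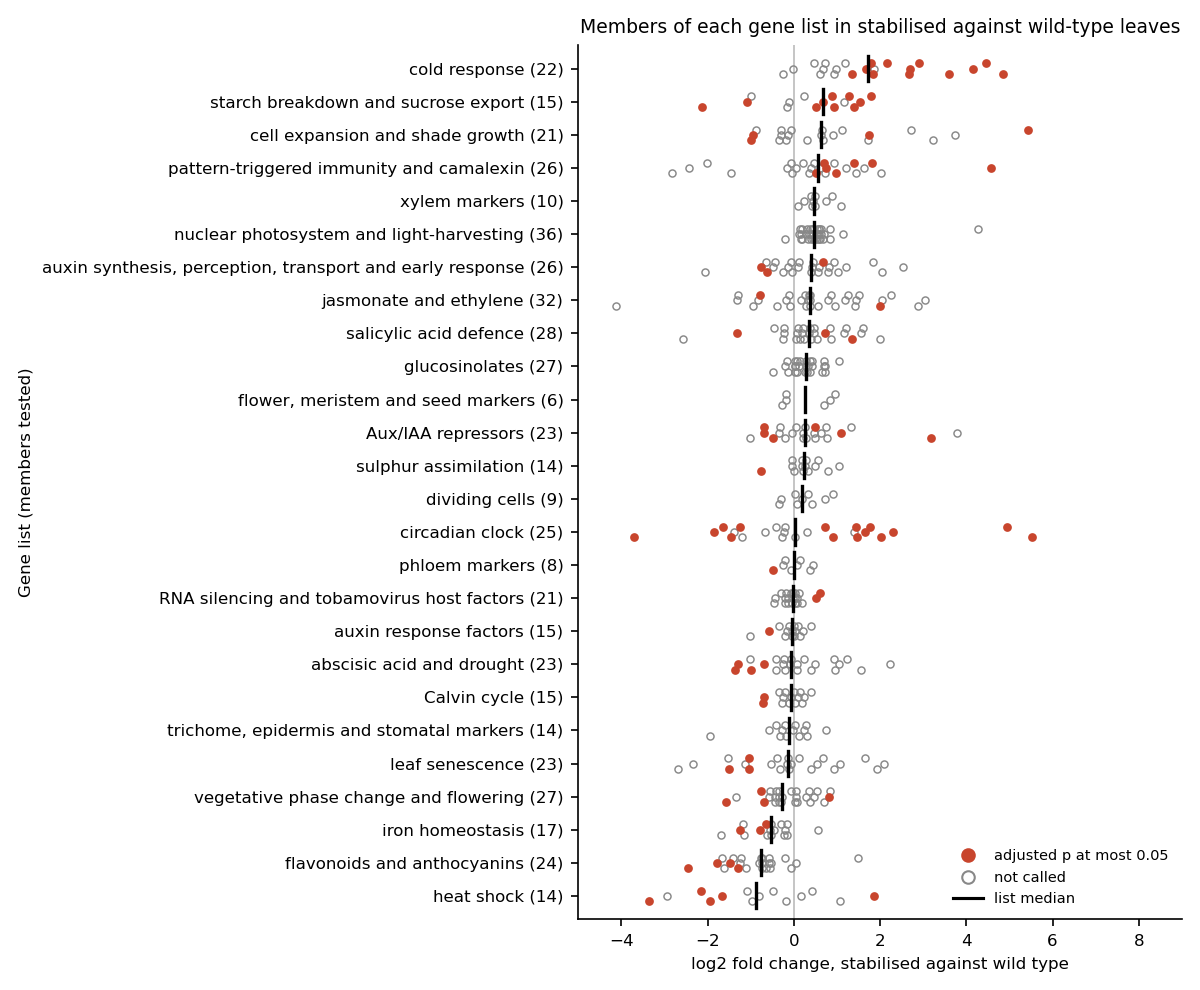
Log2 fold change of stabilised against wild type for every tested member of 26 gene lists, ordered by list median (black bars); filled points passed an adjusted p of 0.05. Cold response has the highest median, 1.72, and heat shock the lowest, -0.88, while clock genes spread to both sides of a median of 0.03.

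Against the knockout-labelled line edgeR called 945 genes higher (4.87%) and 406 lower (2.09%) in the stabilised leaves, or 6.96% in both directions. This comparison shares the stabilised libraries with the one above, so the 2 sets of calls are not independent. Of the 1721 genes called against the wild type 584 were also called here in the same direction and 1 in the opposite one. The clock genes that changed most also differed directly between the lines. FKF1 was at 0.677, 0.858 and 0.926 RPKM in the knockout-labelled libraries, and was higher in the stabilised line by log2 3.09 (SE 0.18, adjusted p = 0.00181). PRR5, at 2.74, 3.87 and 3.70 RPKM there, was higher by log2 2.18 (adjusted p = 0.00252). LHY, at 35.2, 34.4 and 22.8 RPKM there, was lower by log2 -1.72 (adjusted p = 0.0153). For these 3 genes the knockout-labelled libraries lay between the other groups. The knockout-labelled line also differed from the wild type in the same direction in FKF1 (log2 2.43, adjusted p = 0.0035), PRR5 (2.76, adjusted p = 0.000836) and LHY (-1.99, adjusted p = 0.0175).

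CBF3 differed less between the lines, at 5.34, 5.30 and 4.65 RPKM in the knockout-labelled libraries (log2 0.90, SE 0.17, adjusted p = 0.028). CBF2 (log2 1.26, adjusted p = 0.104) and the starch genes DPE1 (0.57, adjusted p = 0.0675) and GWD1 (0.61, adjusted p = 0.0665) were not called there, and COR15B (2.18, adjusted p = 0.0185) and RD29A (1.68, adjusted p = 0.019) were higher. XTH22 (5.11, adjusted p = 0.0307), PHI1 (6.46, adjusted p = 0.0322) and ERF013 (5.29, adjusted p = 0.0403) were higher in the stabilised line too, while EXO (4.42, adjusted p = 0.0535) and AT4G37240 (4.56, adjusted p = 0.0524) were not called. Of the 27 glucosinolate genes 21 were called higher in the stabilised than in the knockout-labelled line, where 4.87% of all genes were. In the comparison with the wild type 0 were. Relative to each gene's mean over all 9 libraries, the list averaged log2 -0.59, -0.84 and -0.33 in the knockout-labelled libraries. It averaged 0.12, 0.24 and 0.16 in the wild type and 0.28, 0.56 and 0.39 in the stabilised libraries. Against the wild type the knockout-labelled line was also higher in CBF3 (log2 3.94, adjusted p = 0.000541), CBF1 (2.74, adjusted p = 0.0336), COR15B (1.97, adjusted p = 0.0405) and DPE1 (1.23, adjusted p = 0.0184). RD29A (1.21, adjusted p = 0.0689), XTH22, PHI1, ERF013, EXO and AT4G37240 were not called in that comparison. Some falls were shared by both lines too. FRO3 (log2 -0.64, adjusted p = 0.0412), OPT3 (-0.95, adjusted p = 0.0423), PIF3 (-0.86, adjusted p = 0.0175) and APR2 (-1.01, adjusted p = 0.0297) were lower in the knockout-labelled line than in the wild type. Their direct differences between the lines were log2 -0.01, 0.17, -0.09 and 0.26. None of these was called, nor was that of IAA17 (0.02, adjusted p = 0.888).

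Intron reads, which come mostly from unspliced transcripts, gave a second readout of the same libraries. Of 11024 genes with enough of them 364 were called higher (3.3%) and 186 lower (1.69%), or 4.99% in both directions. Among 1131 genes called from exon reads and testable here, 95.7% had an intron change of the same sign, and 331 were called in the same direction. These genes were picked by the exon calls, and the share of equal signs over all genes was not computed. PRR5 (log2 5.65, adjusted p = 0.000158), FKF1 (4.75, adjusted p = 0.000166), AT4G30650 (4.54, adjusted p = 7.07e-05) and COR15B (3.86, adjusted p = 0.000166) were higher in intron reads, and LHY (-2.92, adjusted p = 0.00263) and RVE8 (-2.70, adjusted p = 0.000725) were lower. Both readouts share the libraries and their harvest.

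Called genes were spread over the genome. The 5 nuclear chromosomes had 8.26% to 9.88% of their tested genes called, and 103 windows of 1 Mb with at least 50 tested genes had 3.85% to 16.3%, with a median of 8.89%. Windows of 2 Mb had 1.18% to 12.2%. Chromosome 3, which carries IAA26, had 8.80%.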

How the data were processed

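Messenger RNA of leaves was sequenced in 9 libraries, 3 of each line, from RNeasy plant mini kit extracts with NEB Next Ultra libraries, per the labels' protocols. The authors deposited, per the file headers, total and unique exon read counts, unique intron read counts and RPKM per gene from trimmed paired reads. The build was TAIR10, per the submitters' processing notes, while the sources used here name no aligner, counter or use of strand. Reads of overlapping and antisense genes may therefore be shared. No column of per-sample values was left unmatched (0).

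Counts of total exon reads were fitted in edgeR 4.0.16 (R 4.3.3) with all 9 libraries, since they share 1 estimate of spread. The steps were TMM scaling, a filter on low counts (10 reads in enough libraries, 15 in all), 1 mean per group, no block and the quasi-likelihood test with Benjamini-Hochberg adjustment over 19409 genes. A gene was called at an adjusted p of 0.05 or less, and an adjusted p is from this test unless another fit is named beside it. Values for intron reads and without a library are adjusted over the genes of their own fit (11024 for introns, 19708 without stabilised 1). Log2 fold changes are on the count scale of that fit, SE was derived from the F statistic, and levels are the deposited RPKM. Unique intron read counts were fitted in the same way, where total intron reads had been planned. Log2 CPM, with a prior count of 2, gave the principal components and departures.

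On simulated data the exon fit called 47% of 2-fold and 81% of 4-fold changes and 9 of 19209 unchanged genes, and the intron fit called 22% and 69% and 2 of 10824. The simulated counts had 100 genes at each fold, far fewer than were called in the data, and no outlying library. These rates need not hold for the real libraries. Alternatives were RLE and library-total scaling, 2 other filters, DESeq2 1.42.0, limma-voom 3.58.1, the 6 libraries alone, a replicate block, unique reads and each library left out. Tables and figures were made with Python 3.11.15, pandas 2.3.3, numpy 2.4.6 and matplotlib 3.10.9.

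Genes were named by 3 criteria beside IAA26 itself: the 10 strongest increases and the 10 strongest decreases that were called, had no overlap between groups and reached a mean of 1 RPKM in the higher group; per list, the called genes with the smallest p, at most 3; and in lists without a call, the gene with the smallest p. Other list members were named after their values were seen. Genes with under 50% unique reads are called uncertain. The comparison and the 26 lists were chosen with earlier results of these data known. Promoters and degron codons were read from the RefSeq genome of the reference accession, where a RefSeq table had been planned. Its annotation gave 32532 genes the same start and end as the files, of 32548 found.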

Additional observations from a re-analysis of the deposited data

How the results depend on the processing

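The number of genes called depended on the tool and on single libraries. DESeq2 called 3418 genes (1859 higher, 1559 lower), and the fit to only the 6 libraries compared called 615 (411 higher, 204 lower). In that smaller fit 0 Aux/IAA, salicylic acid and cell expansion genes were higher, and 1 heat shock gene was lower. Clock genes had 6 higher and 5 lower, and cold and starch genes 7 higher each. With 1 library left out at a time the calls ran from 584 to 3786, those higher from 394 to 1998 and those lower from 190 to 1788. The extremes were without stabilised 2 and without stabilised 1. RLE scaling gave 1726, library totals 1335, no filter 1511, the filter of 1 CPM 1780, limma-voom 1606 and unique reads 1708. The evening element was in 6.27% of the genes called higher without stabilised 1, an alternative chosen after seeing the data. The cause of these shifts was not tested. IAA26 stayed lower and called in all 15 alternatives (adjusted p from 5.69e-06 with DESeq2 to 0.0457 without stabilised 2). Of 64 named called genes 0 changed sign, and 33 lost the call with the 6 libraries alone, 33 without stabilised 2 and 1 without stabilised 1. With intron reads under the other filter 580 of 18878 genes were called.

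With the replicate number as a block 1537 genes were called (877 higher, 660 lower), and 9 of the 64 named genes lost the call. Deviations of same-numbered wild-type and stabilised libraries from their group means correlated at -0.33, 0.27 and -0.43. For stabilised and knockout-labelled libraries the values were 0.49, -0.26 and 0.52, and for wild-type and knockout-labelled ones -0.23, -0.15 and -0.44. Whether same-numbered libraries share a batch was not tested. In the simulated exon counts 47% of 2-fold changes were called, so 2-fold changes may have been missed here. How many were missed in the real data was not tested.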

Other observations

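Genes in no list and not named by the rule above made up 933 of the genes called higher and 684 of those called lower. Some of the 15 with the smallest p in each direction are given here, chosen after their values were seen. RBG7 (GRP7), an RNA-binding protein whose transcript follows the clock, was at 95.0, 89.2 and 76.2 RPKM in the wild type and at 672, 738 and 761 RPKM in the stabilised leaves (log2 3.15, SE 0.16, edgeR adjusted p = 6.82e-05). TIM22-2 went from 1.28, 1.31 and 1.28 RPKM to 10.8, 11.7 and 12.2 RPKM (log2 3.25, SE 0.12, adjusted p = 1.89e-05), and AT1G56300 from 1.65, 1.22 and 0.981 RPKM to 25.7, 28.2 and 22.9 RPKM (log2 4.41, SE 0.22, adjusted p = 6.82e-05). In these genes the 3 stabilised libraries were alike, stabilised 1 included. ADS2, a fatty acid desaturase, rose (log2 2.87, adjusted p = 0.000289), as did ABF1, a factor of abscisic acid response (log2 2.36, adjusted p = 0.000117), and RIBA2, of riboflavin synthesis (log2 3.15, adjusted p = 0.000472).

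Among the falls, 4CL1, a ligase of phenylpropanoid synthesis, went from 90.0, 76.3 and 90.5 RPKM to 35.1, 23.62 and 27.6 RPKM (log2 -1.50, SE 0.12, adjusted p = 0.000712). Its relative 4CL4 (log2 -1.19, adjusted p = 0.00197), the esterase CSE (log2 -0.83, adjusted p = 0.00114) and the dehydrogenase CAD4 (log2 -0.99, adjusted p = 0.00245) fell too. COL2, a relative of the flowering regulator CONSTANS, fell from 57.2, 37.3 and 42.4 RPKM to 12.4, 9.29 and 11.6 RPKM (log2 -1.97, SE 0.16, adjusted p = 0.000764), with 69.2% of its reads unique. UGT74E2, which glucosylates the auxin precursor indole-3-butyric acid, fell from 12.5, 10.8 and 11.4 RPKM to 1.75, 0.883 and 2.18 RPKM (log2 -2.77, SE 0.32, adjusted p = 0.00293). BAM9, a relative of beta-amylases, fell as well (log2 -1.96, adjusted p = 0.00115). The groups did not overlap for any of these genes.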
